A study of Mus musculus with 10 samples.

Results

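The genes described here are 38 mouse genes whose human counterparts are broken and joined in recurrent leukaemia translocations, from Kmt2a and its fusion partners to Bcr, Abl1, Runx1, Rara and Myc. They were chosen by name, as the genes of such a list that do not lie on chromosome 6, where the bait break was made. A junction was given to a gene when it fell in the RefSeq gene body or within 5 kb of either end. Of 13344 junctions outside chromosome 6 in the 10 libraries, 94 fell in these genes. At least 1 junction was found in 29 of the 38 genes, and none in the other 9.

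All libraries came from Abelson-transformed pre-B cells of the C57BL/6 strain with the genotype LIG4-/-, so the controls also lack DNA ligase 4, the ligase of classical non-homologous end joining. All cells were held in G1 with imatinib for 48 h, and all expressed a zinc-finger nuclease (ZFN) from a doxycycline-driven construct (1 µg/ml, from 24 h), which cuts chromosome 6 and supplies the bait end. The groups were no further treatment (untreated, 2 libraries), etoposide at 50 µM for 2.5 h followed by 12 h without the drug (2 libraries), and 6 conditions with a single library. Of these, IFN and DRB were each used alone and before etoposide, and AsiSI was used alone and after DRB. IFN is given in the labels by its abbreviation alone. DRB, a drug that blocks elongation by RNA polymerase II, was given 2 h before etoposide or AsiSI. AsiSI, a restriction enzyme, was induced with doxycycline and with tamoxifen (1 µM) 20 h later. The labels do not say whether replicates were separate cultures or clones, and junction files hold no expression values with which the pre-B cell label could be checked.

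The assay, high-throughput genome-wide translocation sequencing, reads from the bait end across the join into whatever sequence it was ligated to, called the prey. Each junction records where in the genome a second broken end had been captured. Etoposide traps DNA topoisomerase II on cut DNA, and exposure to it in chemotherapy is linked in patients to secondary leukaemias with translocations of KMT2A and some other genes of this list. The libraries held between 2039 and 13404 junctions each, most of them within 1 Mb of the bait in 8 libraries, and between 108 and 6443 prey outside chromosome 6. Prey were longer in the sequencing run that held untreated and etoposide replicate 1 (median 253 and 272 bp). The second replicates were sequenced in other runs, so treatment and run cannot be told apart there. The AsiSI and DRB with AsiSI libraries shared a run that held no other library, so AsiSI and run cannot be told apart either.

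Bait-to-prey joins in 6 member genes are shown first, because in these genes 2 or more libraries, or 1 library more than once, joined sequence less than 500 bp apart at different positions; the further Nup214 and Myc joins near those pairs are shown with them. Each line gives the last 30 bait bases in lower case and the first 30 prey bases in capitals, in the read's direction, as the read holds them. The first capitals may also belong to the bait where both alignments cover them, over 1 to 12 bases here. Positions are mm10.
Nup214, DRB with AsiSI, chr2:31974671: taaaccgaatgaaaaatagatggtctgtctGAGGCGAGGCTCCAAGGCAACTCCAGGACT
Nup214, AsiSI, chr2:31974732: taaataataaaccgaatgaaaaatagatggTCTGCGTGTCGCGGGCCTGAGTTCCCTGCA
Nup214, AsiSI, chr2:31975420: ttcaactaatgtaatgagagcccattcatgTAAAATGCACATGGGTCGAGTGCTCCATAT
Aff1, etoposide 1, chr5:103693670: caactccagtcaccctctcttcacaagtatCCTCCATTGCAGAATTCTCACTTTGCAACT
Aff1, IFN with etoposide, chr5:103693730: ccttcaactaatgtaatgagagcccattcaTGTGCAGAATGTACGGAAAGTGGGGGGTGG
Rara, IFN with etoposide, chr11:98925373: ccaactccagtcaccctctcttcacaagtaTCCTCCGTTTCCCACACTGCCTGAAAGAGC
Rara, etoposide 1, chr11:98925430: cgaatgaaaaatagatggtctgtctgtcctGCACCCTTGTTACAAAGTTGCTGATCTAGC
Myc, DRB with AsiSI, chr15:61986465: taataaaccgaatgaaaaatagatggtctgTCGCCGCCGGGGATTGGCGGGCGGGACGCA
Myc, etoposide 1, chr15:61986723: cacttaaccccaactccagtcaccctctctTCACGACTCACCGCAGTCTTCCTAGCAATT
Myc, IFN with etoposide, chr15:61987664: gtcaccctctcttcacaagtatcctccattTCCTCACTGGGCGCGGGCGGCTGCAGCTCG
Ccnd1, etoposide 1, chr7:144928584: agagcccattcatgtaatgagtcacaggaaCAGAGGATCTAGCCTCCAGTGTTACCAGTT
Ccnd1, AsiSI, chr7:144928945: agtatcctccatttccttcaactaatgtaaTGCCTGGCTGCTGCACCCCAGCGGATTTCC
Runx1, etoposide 1, chr16:92597744: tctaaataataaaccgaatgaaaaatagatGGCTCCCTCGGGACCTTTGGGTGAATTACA
Runx1, etoposide 1, chr16:92597926: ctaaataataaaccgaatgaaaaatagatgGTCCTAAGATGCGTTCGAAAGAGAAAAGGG
The bait parts come from the same short stretch of chromosome 6, cut back by different amounts, while the prey parts are of each gene's own sequence. None of these joins recurs at the same base in another library.

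The first question was how often etoposide-treated cells joined the bait to these genes. Of the 94 junctions, 83 came from the 4 libraries that received etoposide and 11 from the 6 that did not. Untreated replicate 1 held 2 member junctions and untreated replicate 2 held 0, while etoposide replicate 1 held 48 and etoposide replicate 2 held 17. As a share of prey outside chromosome 6, untreated replicate 1 had 0.324% (exact Clopper-Pearson 95% interval 0.0392% to 1.16%). Untreated replicate 2 had 0% of 247 prey (0% to 1.48%). In etoposide-treated cells the shares were 0.745% (0.550% to 0.987%) and 0.830% (0.484% to 1.33%). These intervals cover counting error only. Both etoposide shares lay above both untreated ones, by 0.626 percentage points on average, but the interval of each untreated library reached into those of the etoposide libraries. No test was made over the list.

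Prey of all kinds were more frequent with etoposide as well. Per 1000 junctions within 1 Mb of the bait, the member genes gave 1.78 and 0 in untreated cells and 40.1 and 4.24 in etoposide-treated cells. Within replicate 1 the rate was 22.5-fold higher with etoposide, where all prey outside chromosome 6 were 9.78-fold more frequent. Within replicate 2, whose libraries came from different runs, it was 7.45-fold higher when the untreated library was given 3 junctions in place of 0. That value leaves out the counting error of the 17 etoposide junctions. All prey were 10.9-fold more frequent there. Etoposide replicate 1 had 1198 near-bait junctions and replicate 2 had 4013, beside 48 and 17 member junctions.

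Set against their length, the members were joined more densely than genes at large in the etoposide libraries. Junctions per 100000 prey per Mb of window were 141 and 157 in the 38 members (149 ± 11.4, SD, n = 2) and 68.0 and 69.0 over all 20757 protein-coding genes outside chromosome 6. The counting intervals of the members, 104 to 187 and 91.8 to 251, lay above the values for all genes in both libraries. In untreated cells the members had 61.4 and 0 (30.7 ± 43.4, SD, n = 2) and all genes 39.9 and 47.0, and the members' intervals, which began at 7.44 and at 0, included the values for all genes. The untreated libraries therefore held too few prey to place the members above or below other genes.

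**Figure D1:**
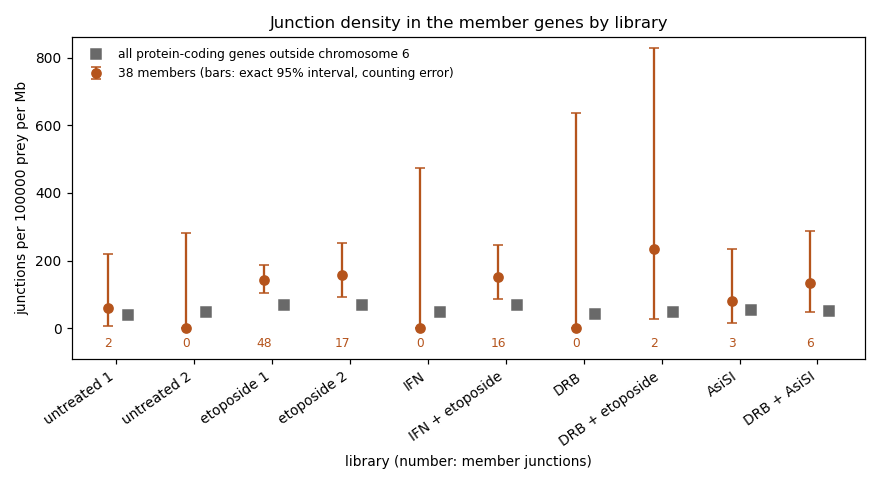
Junctions per 100000 prey outside chromosome 6 per Mb of gene window (y axis) in each of the 10 libraries (x axis), for the 38 members (circles, with exact 95% counting intervals) and for all protein-coding genes outside chromosome 6 (squares). The members' intervals lie above the squares in etoposide 1, etoposide 2 and IFN with etoposide, and reach below or onto them in the other 7 libraries.

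Counted as genes, 27 of the 38 members (71.1%) had at least 1 junction in the etoposide libraries, against a background of 21.6% of all 20757 genes. Without etoposide replicate 1 the count was 13, and without replicate 2 it was 24. Both etoposide libraries hit 10 members (26.3%), against 3.4% of all genes. In the untreated libraries 2 members (5.26%) were hit, against 1.98% of all genes. These members are long: their median length was 92.7 kb (5.02 to 558 kb), and that of all genes was 17.1 kb.

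Within classes of similar length the members' share was above that of all genes in each class, by the least from 100 to 200 kb. Among genes under 50 kb, 7 of 11 members (63.6%) and 15.7% of all genes had an etoposide junction, although the members there were also the longer genes (median 22.8 against 11.0 kb). From 50 to 100 kb the figures were 8 of 10 members and 38.7%, and from 100 to 200 kb they were 6 of 11 members (54.5%) and 44.9%. At 200 kb and over all 6 members were hit, against 46.3% of all genes, with a mean of 4.17 junctions per member and 1.12 per gene. Those 6 are Cux1, Aff3, Mecom, Setbp1, Runx1 and Mllt3. In these longer classes too the members were the longer genes, so length was not fully matched. Their median lengths were 79.4, 152 and 340 kb, against 68.0, 132 and 322 kb for all genes.

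**Figure D2:**
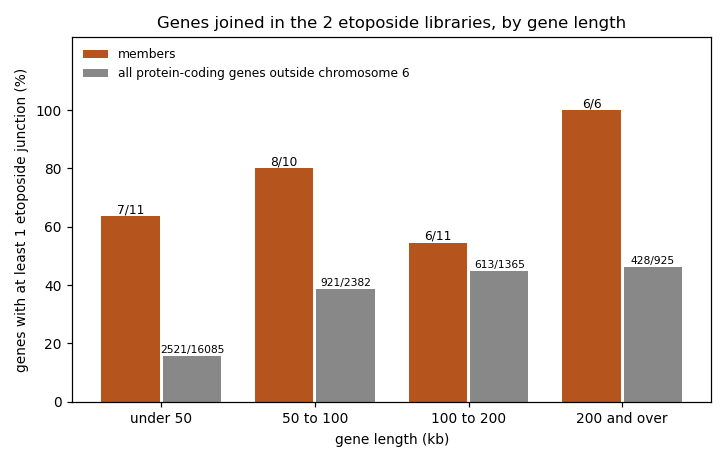
Share of genes with at least 1 junction in the 2 etoposide libraries (y axis, %) by gene length class (x axis, kb), for members and for all protein-coding genes outside chromosome 6, with the number of genes above each bar. The bars of the members are highest at 200 kb and over (6 of 6), and the bars of both sets are closest at 100 to 200 kb.

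KMT2A is a histone methyltransferase that keeps developmental genes active, and in leukaemia its front part is fused to partners that belong to elongation or acetylation complexes. This group of 13 genes held 27 junctions in 10 genes, of which 26 came from etoposide-containing libraries. Etoposide replicate 1 gave 15 and replicate 2 gave 3, or 127 and 79.9 per 100000 prey per Mb. Kmt2a itself (chr9:44803355-44881352) had a single junction, in etoposide replicate 1, 44.4 kb from its start at 57.0% of its length. The gene that gives this family its name was therefore not among its most often joined members.

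Aff1 (chr5:103692362-103855322), which encodes a scaffold of the super elongation complex and is a common KMT2A partner in infant leukaemia, held 10 junctions. Etoposide replicate 1 had 3, etoposide replicate 2 had 1, the IFN with etoposide library had 4, and the DRB with etoposide and DRB with AsiSI libraries had 1 each. Both untreated libraries and those of IFN, DRB and AsiSI alone had 0. The density in the etoposide libraries was 276 ± 9.17 per 100000 prey per Mb (SD, n = 2), from counts of 3 and 1 only. With counts this low, the small SD does not measure how well the libraries agree. The first 30 prey bases of the replicate 2 junction were almost wholly a CT repeat, so its place in Aff1 is less certain. With that junction counted, Aff1 was the member hit in the most libraries, 5 of 10. The junctions of the IFN with etoposide library lay at 1.37, 61.0, 62.2 and 107.9 kb from the gene's outer start.

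The junctions at 61.0 and 62.2 kb lay beside inner start sites of Aff1 in the RefSeq promoter table (GRCm38.p6, the same coordinates as mm10), at -820 bp (before) and at 19 bp (after) of the nearest start. The latter was the only member junction inside a listed promoter window, which runs from 250 bp before to 50 bp after a start. That window, chr5:103754323-103754622 on the plus strand, is printed with the 150 bases that the prey read covers in capitals. It holds 22 CpG, where the median over 32851 promoter windows is 7.
Aff1 inner promoter: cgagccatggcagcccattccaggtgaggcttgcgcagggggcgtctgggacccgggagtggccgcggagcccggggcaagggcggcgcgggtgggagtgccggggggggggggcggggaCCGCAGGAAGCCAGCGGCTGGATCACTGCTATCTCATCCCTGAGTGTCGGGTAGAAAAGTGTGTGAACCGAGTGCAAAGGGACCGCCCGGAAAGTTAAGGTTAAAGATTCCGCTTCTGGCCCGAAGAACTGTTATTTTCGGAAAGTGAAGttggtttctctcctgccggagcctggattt
The prey begins at the last capital and runs back through the start towards the left. The 10 Aff1 junctions as a whole were spread over the first 66.2% of the gene.

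Aff3 (chr1:38175393-38630178), a paralogue of Aff1 that is active in lymphoid cells, held 5 junctions. There were 3 and 1 in the etoposide libraries, 1 with IFN and etoposide and 0 in each of the other 7. At 455 kb it is among the longest members, and its density was the lowest of the 5 genes with at least 5 junctions. That density was 103 ± 3.41 per 100000 prey per Mb (SD, n = 2), from counts of 3 and 1 only. Its junctions ran from 2.85% to 90.8% of the gene.

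The other KMT2A partners were hit less. Mllt10, a DOT1L cofactor, held 3 junctions in etoposide replicate 1 and 1 with IFN and etoposide, and the last 2 along the gene lay at 95.5% and 96.6% of its length. Picalm, a clathrin assembly protein, held 1 in etoposide replicate 1 and 1 with IFN and etoposide. Mllt6, Crebbp, Ell and Ep300 held 1 each in etoposide replicate 1, and Mllt3 held 1 in etoposide replicate 2. Crebbp and Ep300 are histone acetyltransferases, Ell is an elongation factor, and Mllt3 reads acylated histones. Mllt1, the paralogue of Mllt3, had 0 junctions, as did Eps15, an endocytic adaptor, and Tet1, a methylcytosine dioxygenase.

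**Figure D3:**
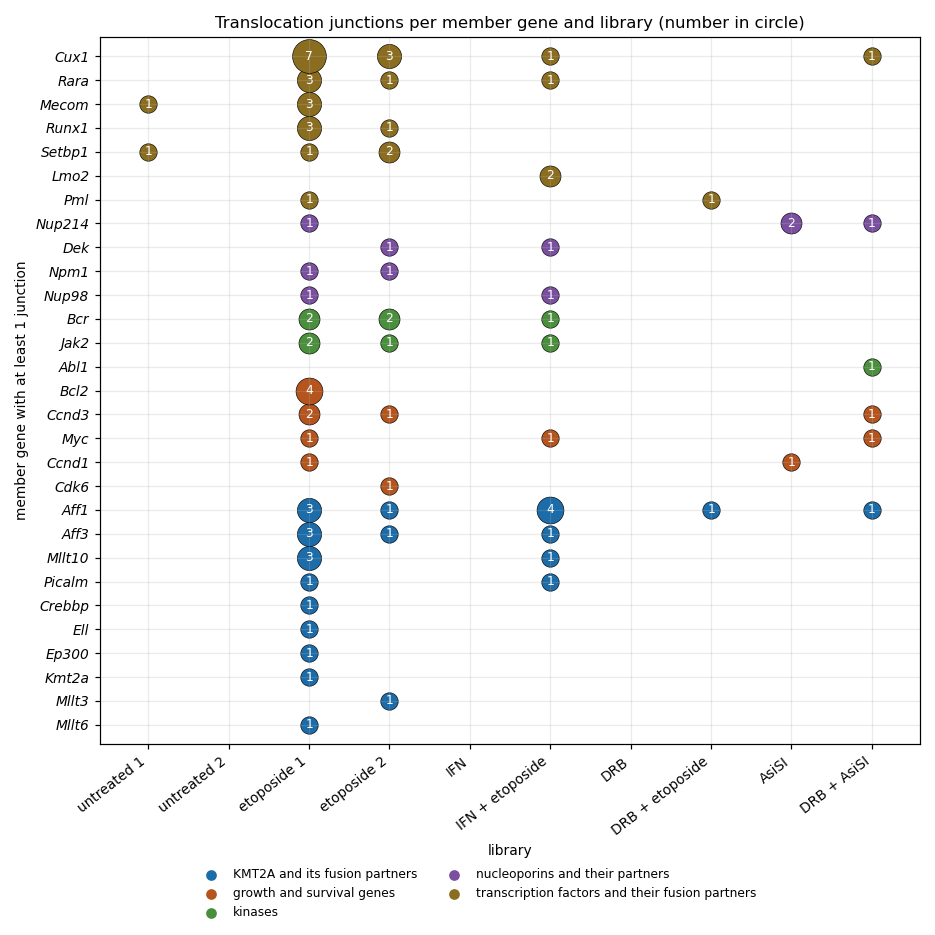
Number of junctions (figure in each circle) in the 29 members with at least 1 junction (y axis, grouped by role in colour) in the 10 libraries (x axis). The circles fill the etoposide 1, etoposide 2 and IFN with etoposide columns, and the untreated 2, IFN and DRB columns are empty.

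Transcription factors and their fusion partners, 13 genes that direct blood-cell fate or repress it when fused, held 33 junctions in 7 genes. Etoposide replicate 1 gave 18 and replicate 2 gave 7, or 120 and 146 per 100000 prey per Mb. Cux1 alone supplied 12 of the 33. The other 6 genes of this group, Runx1t1, Cbfb, Myh11, Zbtb16, Meis1 and Tal1, had 0 junctions in all 10 libraries, although Runx1t1, Zbtb16 and Meis1 are all over 100 kb long.

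Cux1 (chr5:136248135-136567590), a homeodomain factor and tumour suppressor of myeloid cells, was the most often joined member. Etoposide replicate 1 had 7, etoposide replicate 2 had 3, and the IFN with etoposide and DRB with AsiSI libraries had 1 each. The other 6 libraries, both untreated ones included, had 0. Both etoposide counts of Cux1 exceeded both untreated ones, which held for 9 of the 38 members (23.7%) and for 3.26% of all 20757 genes, in libraries with more prey than the untreated ones. Its density was 330 and 444 per 100000 prey per Mb in the etoposide libraries (387 ± 81.1, SD, n = 2). Of all genes outside chromosome 6, 5 had more etoposide junctions than the 10 of Cux1, which were Gse1 and Rere with 13 each, Trio with 12, and Arid1b and Mtss1 with 11 each.

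Cux1 was also the only member with enough junctions to enter the fit over genes, which needs 5 over the 4 untreated and etoposide libraries. In that fit (limma and its voom weights, with prey outside chromosome 6 as library size and Benjamini-Hochberg adjustment over 154 genes), Cux1 differed by 0.14 ± 1.11 on the log2 scale (SE, n = 2 a group), with an adjusted p of 0.921. Of the 154 genes 2 passed, 1.3%, both lower with etoposide relative to all prey, and 12 had an unadjusted p under 0.05. Fisher's exact test (two-sided) on pooled junctions called 1 of the 154 genes and no member, with 3 at an unadjusted p under 0.05. That test took each junction as independent and left out the spread between libraries. The fit adds 0.5 junctions to every library before scaling to its size. With 247 prey in the smaller untreated library, that offset rather than any junction sets the untreated level of Cux1. Cux1 also passed the filter through its etoposide junctions alone. The fit could hardly call a rise at these library sizes, so its p-value does not bear on whether Cux1 changed.

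The 12 Cux1 junctions were spread over nearly the whole of the gene. One lay 0.671 kb before the start, and the rest ran from 13.9% to 99.0% of its 319 kb. At the far end, etoposide replicate 1 had 3 junctions between 85.9% and 99.0%, and in the middle both etoposide libraries contributed to 3 junctions between 37.5% and 40.0% (119.6, 123.9 and 127.8 kb from the start). The nearest pair in that cluster lay more than 3 kb apart, so no site in Cux1 was joined repeatedly.

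Rara (chr11:98927800-98974942), the retinoic acid receptor fused to PML in acute promyelocytic leukaemia, is only 47.1 kb long and held 5 junctions. Etoposide replicate 1 had 3, etoposide replicate 2 had 1, IFN with etoposide had 1 and the other 7 libraries had 0. Its density of 834 ± 27.7 per 100000 prey per Mb (SD, n = 2) was the highest of the 5 genes with at least 5 junctions. The small SD rests on counts of 3 and 1 only. A pair of the 3 in etoposide replicate 1 had the same position, 16.5 kb from the start, and the same strand, so they cannot be told apart from 1 event read more than once. The density and the total of 5 count both reads. With that position counted once, Rara would have fewer than 5 junctions, and its replicate 1 density would be lower. The 2 junctions printed above, 2.43 and 2.37 kb before the start, came from different libraries 57 bp apart with prey that faced each other and overlapped.

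Pml (chr9:58217179-58249796), which organises nuclear bodies and is the partner of Rara, held 1 junction in etoposide replicate 1 and 1 with DRB and etoposide. Runx1 (chr16:92601466-92826074), a master factor of definitive blood formation, held 3 in etoposide replicate 1 and 1 in replicate 2. From these low counts alone its density was 203 ± 6.76 per 100000 prey per Mb (SD, n = 2). Of its 4 junctions, 2 lay 3.72 and 3.54 kb past the end of the gene, 182 bp apart in 1 library, and all 4 prey ran along the direction of transcription. The etoposide replicate 2 junction of Runx1 was 814 bp after an inner listed start.

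Mecom (chr3:29951296-30509759), a stem-cell zinc-finger factor and the longest member at 558 kb, held 1 junction in untreated replicate 1 and 3 in etoposide replicate 1, 2 of them at the same position. Setbp1, a regulator mutated in myeloid disease, held 1 in untreated replicate 1, 1 in etoposide replicate 1 and 2 in etoposide replicate 2. These are the only members with an untreated junction, and both are longer than 300 kb. Lmo2, a bridging protein of the TAL1 complex that is switched on in T-cell leukaemia, held 2 junctions, both with IFN and etoposide.

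Nucleoporins and their partners were grouped with Npm1, a nucleolar protein, and all 4 genes were hit. The group held 10 junctions in all, with densities of 190 and 399 per 100000 prey per Mb in the etoposide libraries from 3 and 2 junctions. Nup98 (chr7:102119400-102210166), a pore protein with many fusion partners, held 1 in etoposide replicate 1 and 1 with IFN and etoposide. Dek, a chromatin protein fused to NUP214, held 1 in etoposide replicate 2, 3.54 kb before its start, and 1 with IFN and etoposide, 0.598 kb inside it. Npm1, a nucleolar chaperone, held 1 in each etoposide replicate, the first 4.04 kb outside the gene. Npm1, at 11.6 kb, was the shortest member hit in both etoposide libraries.

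Nup214 (chr2:31974408-32053975), a cytoplasmic-face pore protein, had most of its junctions in the AsiSI libraries. AsiSI held 2, DRB with AsiSI held 1, etoposide replicate 1 held 1 and the other 7 libraries held 0. The 3 AsiSI junctions lay 263, 324 and 1012 bp inside the gene, and the first pair, from different libraries 61 bp apart, ran in opposite directions away from the gap between them. The etoposide junction was at the other end, at 96.0% of the gene. No Nup214 junction of the 8 other libraries lay near that start. All of those were sequenced in other runs, so AsiSI and run cannot be told apart here.

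The enzyme AsiSI cuts the palindrome GCGATCGC, so the sequence was looked for on both strands. It was in 0 of the 43 promoter windows listed for 30 members and in 73 of all 32851 windows (0.222%). It was also in 0 of the 9 member prey of the AsiSI libraries and in 0 of their 1565 prey outside chromosome 6. A cut would split the motif, so an intact copy in the prey is not needed, and the Nup214 start region beyond these windows was not searched here. Over both AsiSI libraries 7 members (18.4%) had a junction, against 2.95% of all genes.

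**Figure D4:**
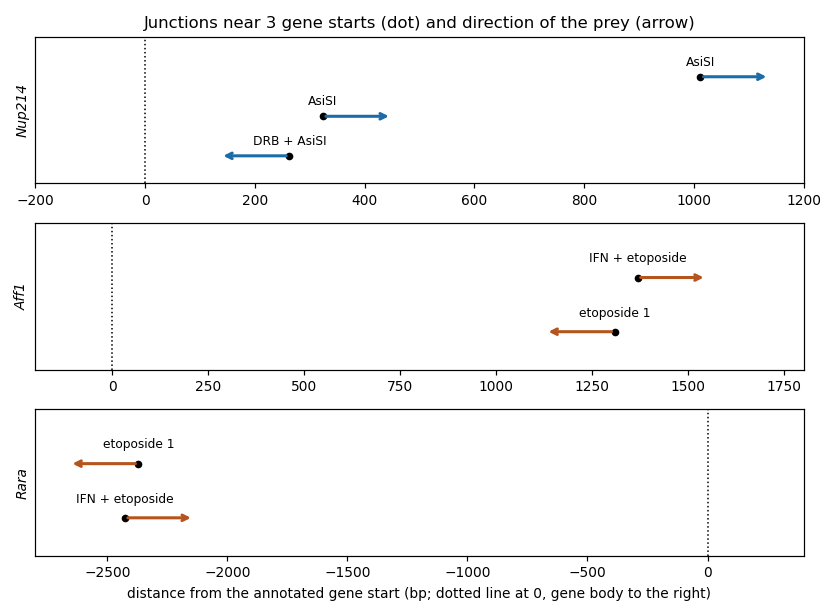
Junctions (dots) near the starts of Nup214, Aff1 and Rara, with the direction in which the prey runs (arrows), by distance from the annotated outer start (x axis, bp; dotted line at 0). In Nup214 and Aff1 the prey of the closest pair run away from each other, and in Rara they run towards each other.

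Of the kinases, Bcr (chr10:75060560-75184923), whose front part activates ABL1 in the Philadelphia chromosome, held 5 junctions. There were 2 in each etoposide replicate, 1 with IFN and etoposide and 0 in the other 7 libraries. The same count from fewer prey gave densities of 231 and 726 per 100000 prey per Mb (479 ± 350, SD, n = 2). With equal counts, this spread came from the prey totals alone. All 5 lay between 30.7% and 72.9% of the gene. Jak2 (chr19:29251803-29313095), the kinase of cytokine receptors, held 2 and 1 in the etoposide replicates and 1 with IFN and etoposide, or 560 ± 176 per 100000 prey per Mb (SD, n = 2).

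Abl1 had 0 junctions in every etoposide library. Its single junction, with DRB and AsiSI, lay 3.23 kb past its end inside the neighbour Qrfp, so its own body held none. Abl1 is the cellular source of the viral oncogene that transforms these lines, and its kinase family is the target of the imatinib that all of them received.

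Growth and survival genes, which lymphoid tumours join to antigen receptor loci, numbered 5 and were all hit, with 14 junctions. Etoposide replicate 1 gave 8 and replicate 2 gave 2, or 236 and 186 per 100000 prey per Mb. Bcl2 (chr1:106538176-106714290), the inhibitor of cell death, held 4, all in etoposide replicate 1, 2 of them at one position, and all 4 between 63.6% and 91.3% of the gene with prey running along transcription. Ccnd3, a D-type cyclin of lymphocytes, held 2 and 1 in the etoposide replicates and 1 with DRB and AsiSI (382 ± 120 per 100000 prey per Mb, SD, n = 2), all between 20.1% and 40.4% of its length. Cdk6, the kinase bound by D-type cyclins, held 1 in etoposide replicate 2.

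Myc (chr15:61985341-61990361) is the shortest member at 5.02 kb and encodes the growth factor-driven regulator that Burkitt lymphoma joins to immunoglobulin loci. It held 3 junctions, 1 each in etoposide replicate 1, IFN with etoposide, and DRB with AsiSI. All 3 were inside the gene, 258 and 941 bp apart, and all 3 prey ran to lower coordinates. Ccnd1, a D-type cyclin that mantle cell lymphoma joins to the heavy chain locus, held 1 in etoposide replicate 1 and 1 with AsiSI, 361 bp apart. Both lay outside Ccnd1, 1.35 and 0.986 kb from it, in the neighbour LTO1.

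Close pairs from different libraries were not confined to a kind of gene. Of the 94 member junctions, 10 (10.6%, exact 95% interval 5.22% to 18.7%) had a junction of another library within 500 bp, against 7.12% of 9465 junctions in all genes, a value inside that interval. Within 100 bp there were 6 (6.38% against 4.36%), and within 2000 bp there were 14 (14.9% against 12.2%). The 10 junctions were the pairs in Aff1, Rara, Nup214, Myc and Ccnd1 printed above.

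Along the genes, the share of etoposide junctions near starts was above the share of length there, in members and in all genes, but for the members the interval included the share of length. For the 30 members whose strand the promoter table gives, 6 of 58 etoposide junctions (10.3%, exact 95% interval 3.89% to 21.2%) lay within 5 kb of the outer start, a zone that makes up 6.90% of their windows. Over all genes of known strand the share was 27.7% with 17.8% of the length, and over genes of at least 100 kb it was 9.45% with 3.80% of the length. With the nearest listed start in place of the outer one the members' share was 13.8%. In 3 equal parts of the gene body, from the start, the members had 17, 23 and 13 junctions, and all genes had 1792, 1407 and 1359. The AsiSI libraries had 3 of 7 member junctions (42.9%) within 5 kb of the start, all of them in Nup214, against 49.9% over all genes.

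**Figure D5:**
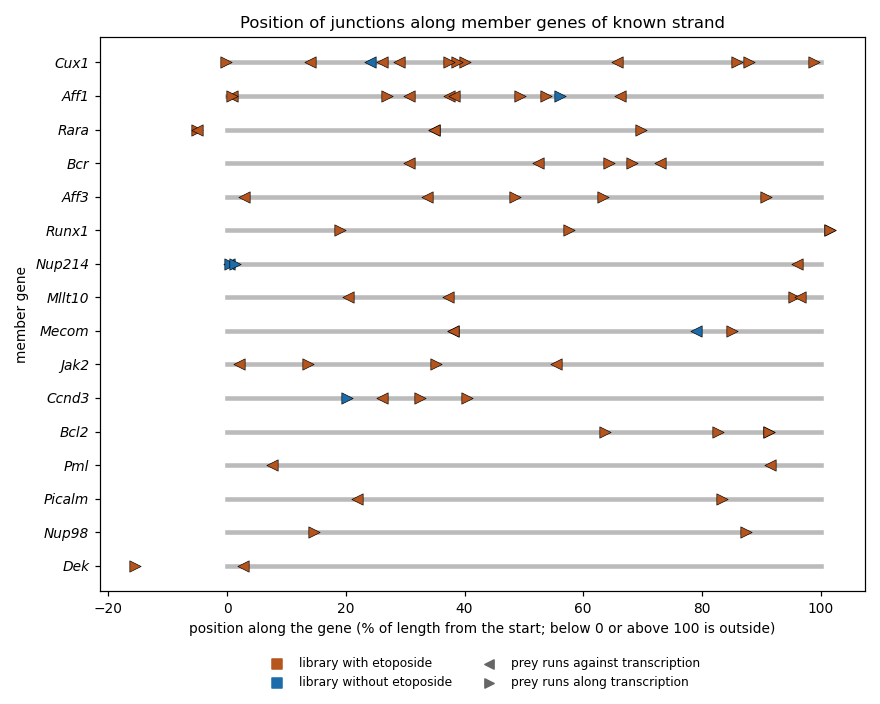
Position of every junction along 16 members of known strand with at least 2 junctions (x axis, % of gene length from the start, with values below 0 or above 100 outside the gene), coloured by whether the library had etoposide. Left-pointing marks are prey that run against transcription and right-pointing marks prey that run along it; the marks are spread over the gene bodies, and the 3 Nup214 marks of the AsiSI libraries sit at the start.

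The direction of the prey shows which side of the break was captured. Among etoposide junctions inside members of known strand, 25 of 53 prey (47.2%, exact 95% interval 33.3% to 61.4%) ran back towards the promoter, and over all genes 52.0% did. The 2 libraries differed, with 23 of 40 (57.5%) in replicate 1 and 2 of 13 (15.4%, 1.92% to 45.4%) in replicate 2. On the genome, prey of members ran to lower coordinates in 36 of 48 junctions of etoposide replicate 1 (75.0%, 60.4% to 86.4%), where all prey outside chromosome 6 of that library did so in 50.1%. Replicate 2 had 7 of 17 (41.2%, 18.4% to 67.1%) and IFN with etoposide had 8 of 16, so the excess was seen in 1 library. The sequencing run moved with that library, and its part in the excess was not tested.

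The joins of members resembled those of other prey in build. In the etoposide libraries, bait and prey alignments of the 65 member junctions overlapped by at least 1 base in 80.0%, met without overlap in 16.9% and were separated by inserted bases in 3.08%, with a median overlap of 3 bp. All 8492 prey of those libraries had 83.7%, 11.8% and 4.52%, with the same median of 3 bp. Overlaps of 5 bp or more made up 23.1% of member joins and 22.0% of all. All 94 member prey matched the genome over at least 90% of aligned bases.

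The remaining questions concern IFN and DRB, alone and with etoposide, and AsiSI with and without DRB. With IFN alone, 0 of 146 prey fell in members (exact 95% interval 0% to 2.49%). With IFN and etoposide 16 of 2005 did (0.798%, 0.457% to 1.29%), in 12 members (31.6%, against 7.26% of all genes). That share differed from etoposide replicate 2, of the same run, by -0.0317 percentage points, with a 95% interval from -0.633 to 0.572 (counting error, combined from the exact intervals of both shares). Against etoposide replicate 1, the control that the labels name, the sign turned, at 0.0530 points. The density was 151 per 100000 prey per Mb, between those of the etoposide replicates. There was 1 library of this kind, so the difference has no replicate check, and each of these comparisons shares its etoposide control.

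With DRB alone, 0 of 108 prey fell in members (exact 95% interval 0% to 3.36%). With DRB and etoposide 2 of 163 did (1.23%, 0.149% to 4.36%), 1 in Aff1 and 1 in Pml, so 2 members (5.26%) were hit, against 0.434% of all genes. Against etoposide replicate 2 the share differed by 0.397 percentage points, with a 95% interval from -0.789 to 3.55, too wide at 163 prey to show a difference of this size. Against etoposide replicate 1 the share differed by 0.482 points. Per 1000 junctions near the bait, members gave 0.887 with DRB and etoposide and 4.24 in etoposide replicate 2, while all prey outside chromosome 6 gave 72.3 and 511. The lower rate of the members, from 2 junctions, stood beside a lower rate of all prey.

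With AsiSI, 3 of 709 prey fell in members (0.423%, 0.0873% to 1.23%), and with DRB and AsiSI 6 of 856 did (0.701%, 0.258% to 1.52%). The difference of 0.278 percentage points had a 95% interval from -0.644 to 1.16. The AsiSI junctions were in Nup214 and Ccnd1, and those with DRB and AsiSI were 1 each in Nup214, Abl1, Aff1, Cux1, Ccnd3 and Myc. Only Nup214 was joined in both.

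Across the 10 libraries, 20 members (52.6%) were joined only where etoposide had been given, 1 (2.63%, Abl1) only where it had not, and 8 (21.1%) in both kinds of library. Over all 20757 genes these shares were 23.1%, 2.82% and 2.35%. The libraries with etoposide held 83 of the 94 member junctions and 10660 of the 13344 prey, so the counts do not rank the members by sensitivity to the drug. A junction cannot be assigned between overlapping genes. The Abl1 and Ccnd1 junctions in Qrfp and LTO1 were given above. In Cux1, Ccnd3, Lmo2, Nup214 and Mllt10, 1 junction each also lay inside another gene (Gm30408, Gm41590, Gm38515, Fam78a and Dnajc1 in that order). Overlap with the 5 kb flanks of other genes was not counted. Breakpoints were not placed in exons or introns, for which no exon table was used here.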

How the data were processed

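Per the labels, genomic DNA of 10 libraries was sequenced on a MiSeq and analysed with the standard pipeline of the assay. The submitters' processing notes name bedtools, mm10 and GRCm38.p2, and other tools and versions are not given in the sources used here. The deposited files hold, per the file headers, 1 junction per row with positions, strands and read sequence, that is, no normalized unit (other values). Junctions off the main chromosomes (83) were left out.

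Junctions were counted per gene in RefSeq bodies (GRCm38.p6) plus 5 kb, with Python 3.11.15, pandas 2.3.3 and scipy 1.17.1. Untreated and etoposide libraries were compared with limma 3.58.1 in R 4.3.3 on genes with at least 5 junctions, at an adjusted p of 0.05. On data simulated at these library sizes this fit missed nearly all genes made to rise and called some unchanged ones, whereas at greater simulated depth it recovered large changes. Its calls and the Cux1 value are therefore given for completeness only. As nothing in the labels says replicates were separate cultures, limma p-values measure only the spread between these libraries, possibly technical. The replicate numbers were not taken as pairs in the main fit, while rates near the bait were compared by replicate number. Members with at least 5 junctions were described in every library, those with 1 to 4 by total and library, and the 5 other genes with most etoposide junctions served as scale. Members, lists and tests were chosen with earlier results of these data known. Intervals are exact Clopper-Pearson (95%). In the ratio of rates near the bait within replicate 2, the untreated count of 0 was replaced by 3. Junctions are reads without molecular identifiers.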

Additional observations from a re-analysis of the deposited data

How the results depend on the processing

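Among alternatives for the comparisons, 39 values stayed within the limits set for them and 19 moved. Among those for Cux1 density and the lower-coordinate share, 6 stayed and 1 moved, the lower-coordinate share without etoposide replicate 1. The limits were an SD from the replicate libraries, a counting interval, or a fixed fold for counts. They do not measure robustness, as the ratio of rates near the bait, 24.9, was judged against an SD of 45.3. Members called could hardly move where Cux1 alone was tested. The sign turned for the IFN with etoposide share (given below) and for Cux1, which was not called, at -0.60 without untreated replicate 1 and -0.13 without etoposide replicate 2. The number of genes called between etoposide and untreated libraries, 2 of 154, was 1 without voom weights, 12 at 3 junctions or more, 0 at 10 or more, 3022 with no filter, 0 with library size from near-bait junctions, 18 with the replicate block, 1 with Fisher's exact test and 0 to 13 with 1 library left out (13 without untreated replicate 1). Members called were 12 of 27 tested with no filter, where 3022 of all 4724 genes tested were called, all of them lower. All of these 12 members but Mecom had 0 untreated junctions, so that the 0.5 junctions added to each library set their untreated level, and Mecom had 1. In the other settings 0 members were called, but there Cux1 was the only member tested, except that 12 members were tested at 3 junctions or more and none without etoposide replicate 1. Same-numbered libraries correlated by 0.262 in their deviations over 154 genes, which with 2 pairs does not show pairing. The share difference of 0.626 percentage points ran from 0.464 to 0.787 with 1 library left out. With the replicate block it is 0.626 by construction. The etoposide to untreated ratio of rates near the bait, 24.9, ran from 4.76 to 45.0 with 1 library left out, and has no value without untreated replicate 1. The IFN with etoposide share differed by 0.0530 percentage points from etoposide replicate 1. The share within 5 kb of the start, 10.3%, was 5.17% within 2 kb, 13.8% within 10 kb and 13.8% from the nearest listed start, and ran from 7.14% to 11.4% with 1 library left out. The promoter-side share ran from 15.4% to 57.5%, the lower-coordinate share from 41.2% to 75.0%, and members with an etoposide junction from 13 to 24. The 90% identity limit, the nearest listed start and the settings for members hit, Cux1 and prey strand were chosen after seeing the data. Depth limits the single-library comparisons, as 3 of the 10 libraries held fewer than 200 prey outside chromosome 6.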
